A study of Mus musculus with 12 samples.

Results

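Weekly prednisone was compared with vehicle in hearts that carried no infarct, over all genes measured, in 6 of the 12 myocardial libraries of the study: 3 from sham-operated mice given prednisone and 3 from sham-operated mice given vehicle. Prednisone is a synthetic glucocorticoid, and a sham operation opens the animal without producing an infarct. All mice were male C57BL/6 wild-type animals, about 10 weeks old in the protocol and about 16 weeks old in the sample labels, and each library came from 1 mouse. The remaining 6 libraries, from infarcted hearts under the same treatments, entered only where named. In both surgery groups, treatment began 2 weeks after the operation and ran for 6 weeks. Prednisone was injected intraperitoneally at 1 mg/kg once a week at lights-on (ZT 0), and the heart was taken 24 hours after the last injection. The makeup of the vehicle and the clock hour at which each heart was taken are not given in the labels. The groups cover 1 sex, 1 strain, 1 dose and 1 time after injection.

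The heart keeps a circadian clock of its own. BMAL1 (encoded by Arntl) pairs with CLOCK or NPAS2, binds E-box sequences, and drives the Per and Cry repressors, the nuclear receptors Nr1d1 and Nr1d2 (REV-ERB alpha and beta), and the transcription factors Dbp, Tef and Hlf. The REV-ERB proteins repress Arntl, Npas2 and Nfil3 through ROR elements, while DBP, TEF and HLF activate genes through D-box sequences that NFIL3 also occupies as a repressor. Genes such as Dbp therefore peak when Arntl is low, and the reverse. Glucocorticoids act through a nuclear receptor (Nr3c1) that switches on genes such as Fkbp5, Tsc22d3 and Per1 within hours, and they are a known timing signal for clocks outside the brain.

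The deposited values were TPM, length-scaled abundances that are shares of a library, summed here over the transcripts of each gene. TPM does not show how many reads stand behind a library, so the precision of each value rests on the spread between 3 mice. Between 11690 and 12506 genes reached 1 TPM in a sham library. Mitochondrially encoded transcripts took 32.4% to 42.0% of TPM, nuclear copies of mitochondrial DNA 10.6% to 14.6%, and globin transcripts 2.66% to 9.65%. Across genes, libraries of the vehicle group correlated with each other at Pearson r of 0.973 to 0.988, those of the prednisone group at 0.987 to 0.988, and libraries of different groups at 0.974 to 0.985, where genes are not independent replicates. Sham vehicle replicate 3 stood apart from the other vehicle libraries, and the source of this was not tested. It correlated at 0.978 and 0.973 with vehicle replicates 1 and 2, and at 0.982, 0.984 and 0.984 with the prednisone libraries. Its mitochondrial share of 42.0% was the highest of the 6. Its atrial markers summed to 908 TPM, against 1987 and 2629 TPM in vehicle replicates 1 and 2. Its lymphocyte markers summed to 3.38 TPM, against 19.6 and 30.7 TPM in those libraries. Its summed adipocyte markers were 21.7 TPM, against 271 and 379 TPM in the other vehicle libraries and 143 to 164 TPM in the prednisone libraries, and its globin share of 2.66% was the lowest of the 6. The tissue label held: Myl2, the ventricular myosin light chain, ranged from 11294 to 14066 TPM and Myh6, the adult alpha myosin heavy chain, from 2846 to 3485 TPM over the 6 libraries.

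Few genes separated the treatments beyond the spread between mice, and clock genes led them. Of 12177 genes tested, 25 (0.205%) were called, meaning a limma adjusted p under 0.05 on log2(TPM + 1), with 12 higher (0.0985%) and 13 lower (0.107%) with prednisone. Of 42 genes on 4 lists of clock genes and clock outputs, 41 could be tested and 12 were called. These lists were chosen with earlier results of these data known, so their counts are a description. All 25 called genes had groups that did not overlap, a property shared by 19.1% of all genes tested, 16.6% higher and 2.48% lower. At an unadjusted p under 0.05, 1444 genes passed (11.9%), of which 1234 were higher (10.1%) and 210 lower (1.72%). The median change over all genes was 0.08 on the log2 scale. With the values rescaled by median ratios, the split of called genes moved to 8 higher and 19 lower, and with a correction for transcript length to 9 higher and 17 lower. Leaving out 1 library at a time gave between 9 called genes (without sham vehicle replicate 2) and 76 (without sham vehicle replicate 3). The count was 14 without sham vehicle replicate 1, and 16, 13 and 10 without sham prednisone replicates 1, 2 and 3. A fit over all 12 libraries gave 15 (0.114% of 13158), of which 14 were among the 25. Of the 25 genes, 6 (Dbp, Tcap, Nfil3, Nr1d1, Arntl and Per3) were called whichever sham library was left out.

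**Figure D1:**
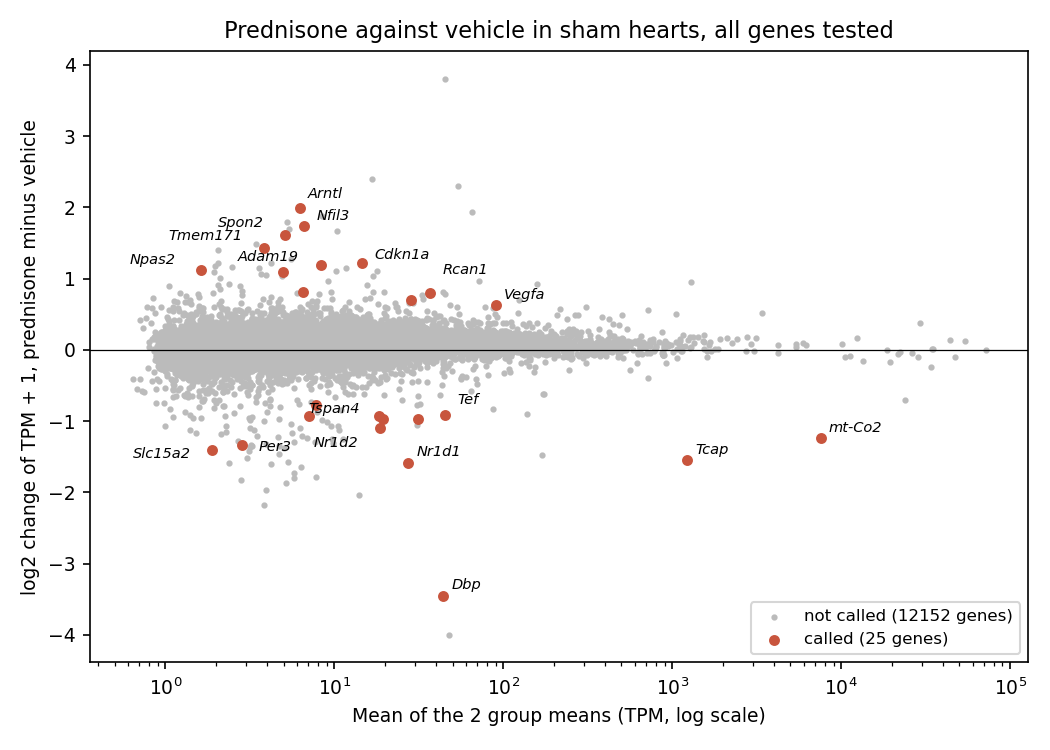
Each point is 1 of the 12177 genes tested, with the mean of both group means in TPM on a log scale across and the log2 change of TPM + 1 (prednisone minus vehicle) upward. The 25 called genes are in red, with Dbp at -3.45 at the bottom, Arntl at 1.99 near the top, and Tcap and mt-Co2 the most abundant; grey points with larger changes had a larger spread between mice.

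The stretches upstream of a gene's start were searched for exact letters of 3 clock elements. RefSeq windows of the 250 bases before the start (GRCm38.p6) matched 19 of the 25 called genes by symbol, with 30 windows in all since some genes have several starts. Exact matches were sought on both strands to the E-box CACGTG, the D-box TTATGTAA and the ROR element TAGGTCA, which do not overlap each other as written. The E-box was present in 7 of the 30 windows (23.3%), belonging to Adam19, Coq10b, Rcan1, Slc41a3, Tef and Tspan4, and in 6.02% of all 32851 windows. The D-box was present in 2 windows (6.67%), those of Coq10b and Per3, and in 0.819% of all windows. The ROR element was present in 1 window (3.33%), that of Nfil3, and in 2.23% of all windows. The windows of Dbp, Nr1d1, Nr1d2, Arntl and Npas2 held none of these exact letters. Only 1 spelling of each element was sought, over 250 bases, so a missing match does not show that a promoter lacks the element. The Npas2 window also lies inside the span that GENCODE gives for the gene (chr1:39193731-39363236). So do the E-box windows of Rcan1, Slc41a3 and Tspan4, and those at both starts of Tef. By GENCODE, only the E-box windows of Adam19 and Coq10b lie upstream of the gene. For Adam19, Rcan1 and Tspan4, the bases after the RefSeq start of the E-box window were found in no GENCODE transcript of the gene. Of the windows, 4 are printed 5′ to 3′ in the direction of transcription, with the matched letters in capitals, because they show the 3 elements in genes of both directions: Per3 (chr4:151044666-151044915, minus strand) with its pair of D-boxes, Coq10b (chr1:55052520-55052769, plus strand) with a D-box on the reverse strand and an E-box, the first start of Tef (chr15:81802423-81802672, plus strand) with an E-box, and Nfil3 (chr13:52981040-52981289, minus strand) with a ROR element on the reverse strand.
Per3: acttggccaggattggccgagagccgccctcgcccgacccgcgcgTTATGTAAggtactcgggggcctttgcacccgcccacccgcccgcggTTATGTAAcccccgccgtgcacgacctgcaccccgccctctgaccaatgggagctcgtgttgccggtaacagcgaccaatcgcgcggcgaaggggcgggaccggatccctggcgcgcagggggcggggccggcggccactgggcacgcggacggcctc
Coq10b: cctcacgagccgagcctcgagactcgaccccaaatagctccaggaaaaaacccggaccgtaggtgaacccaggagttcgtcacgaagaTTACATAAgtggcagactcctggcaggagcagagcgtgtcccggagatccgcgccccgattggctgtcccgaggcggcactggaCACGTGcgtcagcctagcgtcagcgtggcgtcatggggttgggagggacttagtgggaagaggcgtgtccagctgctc
Tef: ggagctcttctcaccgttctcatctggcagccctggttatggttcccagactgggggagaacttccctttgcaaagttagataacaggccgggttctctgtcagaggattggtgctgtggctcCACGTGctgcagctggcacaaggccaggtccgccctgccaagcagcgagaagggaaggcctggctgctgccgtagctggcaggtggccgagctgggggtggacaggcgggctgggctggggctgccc
Nfil3: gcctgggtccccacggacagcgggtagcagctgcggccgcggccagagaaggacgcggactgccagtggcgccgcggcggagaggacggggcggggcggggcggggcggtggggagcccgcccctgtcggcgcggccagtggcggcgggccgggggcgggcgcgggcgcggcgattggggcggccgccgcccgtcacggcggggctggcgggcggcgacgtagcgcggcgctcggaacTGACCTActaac
Counted from the RefSeq starts, the Per3 D-boxes lie 205 to 198 and 158 to 151 bases before. The Coq10b D-box lies 162 to 155 and its E-box 78 to 73 bases before. The Tef E-box lies 127 to 122 bases before, and the Nfil3 element 12 to 6 bases before. For Tef and Nfil3 the GENCODE gene spans begin further out (chr15:81802421-81826863 and chr13:52967209-52981073). The printed Tef window and the Nfil3 element lie inside those spans, so by GENCODE they are not upstream of the gene. Per3, Coq10b and Tef were lower with prednisone and Nfil3 was higher. A match describes the letters only, and binding was not measured.

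Clock genes that peak together with Dbp were lower in prednisone hearts. Of the 12 on that list, all had a lower mean, 11 had groups that did not overlap, and 5 were called lower: Dbp, Nr1d1, Per3, Nr1d2 and Tef. Of all genes tested, 2.48% were lower without overlap and 0.107% were called lower. The list's median change was -1.10 on the log2 scale, beside 0.08 over all genes tested, and 11 of the 12 had an unadjusted p under 0.05. The levels of clock genes depend on the hour of day. The labels give vehicle and prednisone mice the same schedule, with injection at ZT 0 and the heart taken 24 hours after the last injection. With no hour of collection for single hearts, the part of that hour in the clock gene values was not tested. No member was called higher.

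Dbp (chr7:45705088-45710203, GRCm38), a D-box activator, had the lowest adjusted p of all genes. It measured 75.2, 82.8 and 86.5 TPM in vehicle replicates 1 to 3 and 7.73, 6.61 and 5.44 TPM in prednisone replicates 1 to 3. Every vehicle heart was above 75 TPM and every prednisone heart below 8 TPM. The group means were 81.5 ± 5.72 and 6.60 ± 1.14 TPM (SD, n = 3 each), and Dbp fell by 3.45 on the log2 scale (SE 0.12, limma adjusted p = 2.33e-05). Its relative Tef (chr15:81802421-81826863) measured 52.4, 65.9 and 58.4 TPM with vehicle and 29.1, 30.2 and 33.1 TPM with prednisone, again without overlap. Tef fell by 0.91 on the log2 scale (SE 0.10, limma adjusted p = 0.0151), a call kept without vehicle replicate 1 or 3 and lost without any of the other 4 libraries, with a highest adjusted p of 0.0861. Hlf, the remaining member of this family, measured 7.30, 10.97 and 8.39 TPM with vehicle and 3.00, 3.49 and 4.23 TPM with prednisone. Its groups did not overlap, and its log2 change of -1.10 missed the threshold (limma adjusted p = 0.0528).

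The REV-ERB receptors were lower as well. Nr1d1 (chr11:98767932-98775333) measured 44.1, 45.6 and 34.3 TPM with vehicle and 12.9, 14.2 and 12.04 TPM with prednisone. The lowest vehicle heart was more than 20 TPM above the highest prednisone heart. Its mean went from 41.3 ± 6.15 to 13.1 ± 1.11 TPM, and it fell by 1.58 on the log2 scale (SE 0.12, limma adjusted p = 0.00321). Nr1d2 (chr14:18204054-18239127) measured 23.7, 26.1 and 27.3 TPM with vehicle and 12.9, 11.7 and 9.75 TPM with prednisone. It fell by 1.10 on the log2 scale (SE 0.11, limma adjusted p = 0.0103), and lost its call without sham vehicle replicate 2 (adjusted p = 0.0782).

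Among the period and cryptochrome repressors and their helpers, only Per3 passed the test. Per3 (chr4:151003652-151044665) measured 4.28, 4.45 and 4.71 TPM with vehicle and 1.24, 1.09 and 1.18 TPM with prednisone. Both groups were tight and far apart, and Per3 fell by 1.34 on the log2 scale (SE 0.11, limma adjusted p = 0.00349). Per2 measured 1.70, 2.36 and 2.70 TPM against 0.637, 0.794 and 0.547 TPM, a log2 change of -0.96 (limma adjusted p = 0.0813). Per1, a direct glucocorticoid receptor target as well as a clock gene, measured 11.3, 16.6 and 15.8 TPM with vehicle and 8.33, 8.74 and 2.84 TPM with prednisone. Prednisone replicate 3 was far below the other prednisone hearts, and the log2 change of -1.13 did not pass (limma adjusted p = 0.275). Ciart, a repressor of the BMAL1 complex, measured 5.70, 6.78 and 13.5 TPM against 2.55, 2.02 and 3.82 TPM, with vehicle replicate 3 the highest (log2 change -1.29, limma adjusted p = 0.178). The remaining repressors gave log2 changes of -0.75 for Bhlhe41 (adjusted p = 0.0813), -0.55 for Cry2 (0.153) and -0.52 for Bhlhe40 (0.434). Bhlhe40 was the only 1 of these 12 genes whose groups overlapped.

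The opposite arm of the clock was higher in prednisone hearts. Of its 6 listed genes all had a higher mean, 5 had groups that did not overlap, and 3 were called higher, Arntl, Nfil3 and Npas2, with a list median of 0.91 on the log2 scale. Of all genes tested, 70.7% had a higher mean, 16.6% were higher without overlap and 0.0985% were called higher. Arntl (chr7:113207465-113314126) measured 1.87, 2.40 and 1.46 TPM with vehicle and 10.4, 8.90 and 12.4 TPM with prednisone. No vehicle heart came near the prednisone hearts, and the change was 1.99 on the log2 scale (SE 0.16, limma adjusted p = 0.00331). Nfil3 (chr13:52967209-52981073), the D-box repressor, measured 2.64, 2.53 and 2.39 TPM with vehicle and 9.42, 10.9 and 11.98 TPM with prednisone, which gave group means of 2.52 ± 0.128 and 10.8 ± 1.29 TPM. The vehicle hearts differed by less than 0.3 TPM among themselves, and Nfil3 rose by 1.73 on the log2 scale (SE 0.11, limma adjusted p = 0.00109). Npas2 (chr1:39193731-39363236), the partner that can replace CLOCK, measured 0.528, 0.784 and 0.637 TPM with vehicle and 2.29, 2.82 and 2.63 TPM with prednisone. It rose by 1.12 on the log2 scale (SE 0.13, limma adjusted p = 0.0251), but was called only without sham vehicle replicate 3 among the fits that left out a library, with adjusted p up to 0.150.

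Clock itself measured 4.76, 5.65 and 4.59 TPM with vehicle and 7.67, 7.84 and 7.67 TPM with prednisone. Its groups did not overlap, and its log2 change of 0.54 missed the threshold (limma adjusted p = 0.122). Cry1, the late repressor, changed by 0.71 (adjusted p = 0.153), from 2.44, 3.20 and 2.23 TPM to 4.51, 4.41 and 5.83 TPM. Rora differed by 0.07 (adjusted p = 0.833) and its groups overlapped. Of the 7 tested kinases and turnover factors of the clock, none was called, and the member with the lowest p was Gsk3b at 0.26 (adjusted p = 0.383).

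**Figure D2:**
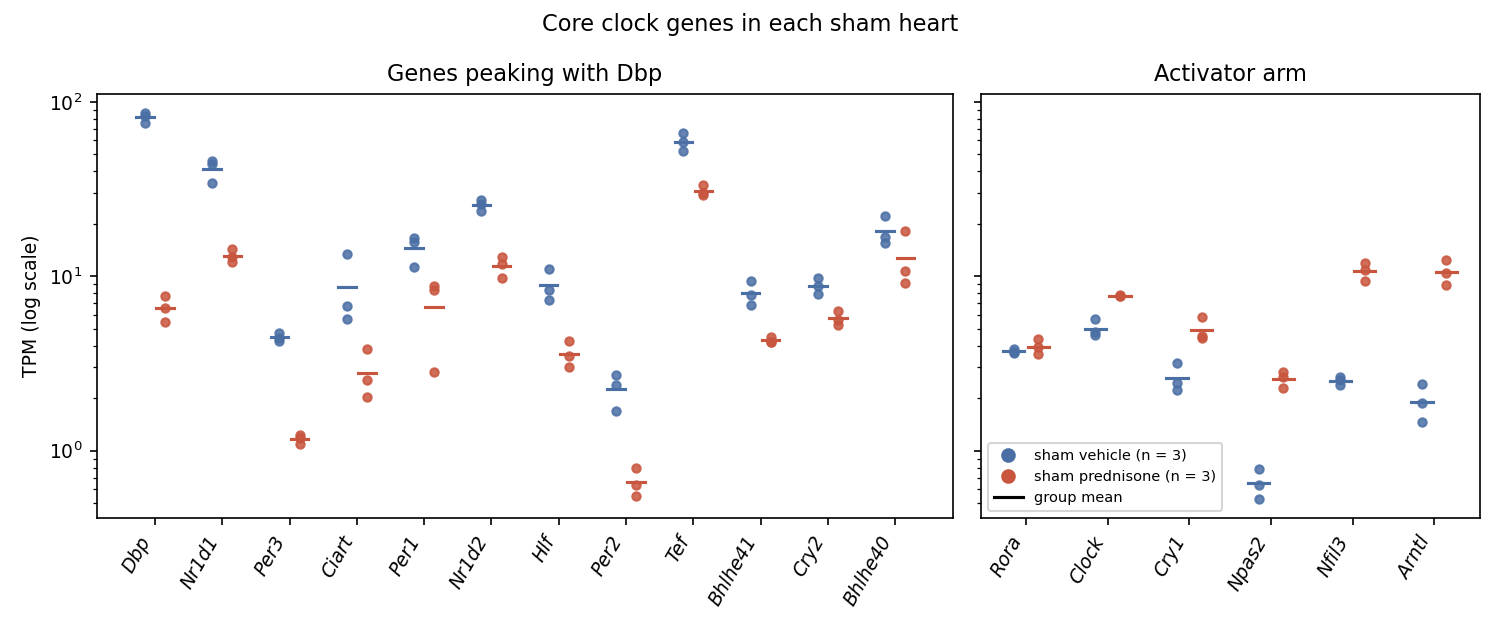
TPM on a log scale of the 12 clock genes that peak with Dbp (left) and 6 genes of the activator arm (right) in each sham heart, vehicle in blue and prednisone in red, n = 3 each, with a bar at each group mean. On the left all 3 prednisone points lie below all 3 vehicle points except for Bhlhe40, and on the right they lie above except for Rora.

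The ratio of Dbp to Arntl within a library joins both arms in 1 number that scaling between libraries cannot move. It was 40.2, 34.5 and 59.4 in the vehicle hearts and 0.743, 0.743 and 0.440 in the prednisone hearts, so each sham vehicle heart held more Dbp than Arntl and each sham prednisone heart less. Infarcted hearts gave 24.2, 19.2 and 9.92 with vehicle and 0.794, 0.687 and 0.573 with prednisone. The ratio is a description with no test. Compared by length-scaled TPM, Dbp was the most abundant of the 18 core genes in the vehicle hearts, and Tef was the most abundant in the prednisone hearts.

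Of 16 listed output genes of the cardiac clock, 4 were called lower (Tcap, Tspan4, Coq10b and Usp2), beside 0.107% of all genes tested. None was called higher, and the median was -0.20 on the log2 scale. Tcap (chr11:98383811-98384953) encodes telethonin, which caps titin at the Z-disc. It measured 1825, 1789 and 1874 TPM with vehicle and 673, 587 and 621 TPM with prednisone, so that every treated heart lay far below every vehicle heart. The group means were 1829 ± 42.7 and 627 ± 43.6 TPM, and Tcap fell by 1.55 on the log2 scale (SE 0.08, limma adjusted p = 0.000165). Usp2, a deubiquitinase, measured 32.8, 46.3 and 46.5 TPM with vehicle and 21.4, 19.9 and 20.7 TPM with prednisone (log2 change -0.97, limma adjusted p = 0.0437). Coq10b, a coenzyme Q binding protein, measured 22.7, 25.0 and 24.8 TPM against 11.8, 14.9 and 10.5 TPM (log2 change -0.92, adjusted p = 0.0413). Tspan4, a tetraspanin, measured 23.7, 30.2 and 24.4 TPM against 13.2, 11.3 and 13.8 TPM (log2 change -0.97, adjusted p = 0.0266). In no case did the groups overlap, which held for all 25 called genes. Among fits leaving out a library, Tspan4 was called only without sham vehicle replicate 3, Usp2 only without vehicle replicate 1 or 3, and Coq10b only without vehicle replicate 3 or prednisone replicate 2, with adjusted p of up to 0.105, 0.195 and 0.150. Coq10b also missed the threshold after median-ratio rescaling (adjusted p = 0.0605), without mitochondrial, nuclear-copy and globin transcripts (0.0710) and with the length correction (0.0880). The other 12 outputs were not called. Ucp3, a mitochondrial uncoupling protein, had the largest change among them at -1.06 (adjusted p = 0.269), with overlapping groups of 52.5, 45.0 and 28.0 TPM and 29.4, 12.4 and 18.5 TPM. Wee1, a cell cycle kinase, gave -0.27 (adjusted p = 0.491) and the repolarising channel gene Kcnh2 -0.35 (adjusted p = 0.336).

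Outside the clock lists, 13 genes were called. Those that encode secreted or membrane proteins are given first. Spon2, a secreted matrix protein (chr5:33198184-33218455), measured 1.89, 2.48 and 1.64 TPM with vehicle and 9.23, 6.93 and 8.32 TPM with prednisone. It rose by 1.61 on the log2 scale (SE 0.15, limma adjusted p = 0.00635), without overlap. Adam19, a membrane metalloproteinase, measured 4.48, 5.44 and 4.18 TPM against 11.5, 11.7 and 12.7 TPM (log2 change 1.19, limma adjusted p = 0.00684). Vegfa, the endothelial growth factor that cardiomyocytes secrete, measured 65.0, 70.0 and 76.1 TPM with vehicle and 107, 113 and 108 TPM with prednisone, and rose by 0.63 on the log2 scale (SE 0.08, limma adjusted p = 0.0287). Slc41a3, of a magnesium transporter family, measured 22.1, 23.2 and 19.2 TPM against 34.2, 33.9 and 38.3 TPM (log2 change 0.70, adjusted p = 0.0413). The membrane protein gene Tmem171 measured 1.81, 1.56 and 1.46 TPM against 7.26, 5.01 and 5.98 TPM (log2 change 1.43, adjusted p = 0.00862). Slc15a2, a peptide transporter, went the other way, from 3.76, 2.62 and 3.17 TPM to 0.350, 0.492 and 0.914 TPM (log2 change -1.41, adjusted p = 0.0287). Spon2 and Adam19 lost their calls without sham prednisone replicate 3 (adjusted p = 0.0504 each), and Tmem171 without that library or sham vehicle replicate 2 (up to 0.0699). Vegfa, Slc41a3 and Slc15a2 were called only without sham vehicle replicate 3 among those fits, with adjusted p up to 0.144, 0.164 and 0.148. The call of Vegfa was also lost after median-ratio rescaling (log2 change 0.55, adjusted p = 0.121), without mitochondrial, nuclear-copy and globin transcripts (0.0661) and with the length correction (0.105).

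Genes acting inside the cell made up the rest. Cdkn1a, the cell cycle inhibitor p21 and a glucocorticoid receptor target, measured 6.74, 9.20 and 9.21 TPM with vehicle and 21.01, 25.0 and 16.6 TPM with prednisone, and rose by 1.21 on the log2 scale (SE 0.17, limma adjusted p = 0.0413). Rcan1, an inhibitor of calcineurin, measured 26.1, 24.7 and 28.3 TPM against 39.7, 51.1 and 49.8 TPM (log2 change 0.80, adjusted p = 0.0413). Its less abundant transcript carried more of the difference, at 5.02, 3.14 and 4.30 TPM against 13.1, 22.0 and 18.9 TPM (log2 change 1.87, adjusted p = 0.0832 over transcripts), while the more abundant one changed by 0.37 (0.297). Ypel2, of the yippee family, measured 2.85, 3.02 and 2.47 TPM against 7.25, 7.17 and 6.82 TPM (log2 change 1.10, adjusted p = 0.00704), and Ccdc69 gave 0.81 (adjusted p = 0.0413). Csrnp1, a nuclear protein, fell by 0.92 on the log2 scale (adjusted p = 0.0413), from 8.85, 11.3 and 8.71 TPM to 4.75, 4.12 and 4.86 TPM. Lactb2, a mitochondrial ribonuclease, had gene sums of 9.65, 10.4 and 10.1 TPM against 4.96, 6.25 and 5.27 TPM (log2 change -0.77, adjusted p = 0.0413). Its main transcript changed by -0.12 (adjusted p = 0.678 over transcripts) and its second by -2.05 (0.206), so neither was called alone. Ypel2 lost its call without sham prednisone replicate 3 (adjusted p = 0.0504). Among the fits without 1 library, Cdkn1a, Ccdc69, Csrnp1 and Lactb2 were called only without sham vehicle replicate 3, and Rcan1 only without that library or prednisone replicate 1, with adjusted p up to 0.145, 0.164, 0.160, 0.181 and 0.187. After median-ratio rescaling, Cdkn1a (adjusted p = 0.0940), Rcan1 (0.131) and Ccdc69 (0.0595) also missed the threshold. Without mitochondrial, nuclear-copy and globin transcripts Cdkn1a (0.101) and Rcan1 (0.0715) missed it, and with the length correction Rcan1 (0.119) and Ccdc69 (0.0529).

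The last called gene, mt-Co2, encodes a cytochrome c oxidase subunit and shares its sequence with a nuclear copy. It measured 10800.2, 10168 and 10682 TPM with vehicle and 5429, 4407 and 3724 TPM with prednisone (log2 change -1.24, SE 0.13, limma adjusted p = 0.0131). Of its 31-base stretches, 99.5% also occur in the pseudogene Gm28661, so most reads of the 2 cannot be told apart. Summed with Gm28661 the level was 62335 ± 4480 TPM with vehicle and 60845 ± 425 TPM with prednisone (SD, n = 3 each), and these groups overlapped. None of the other 12 mitochondrially encoded genes tested was called, and their changes ran from -0.71 to 0.01. Among them, mt-Co3 averaged 29434 TPM with vehicle and 18515 TPM with prednisone. Its nuclear copy Gm28437, which holds 99.9% of the 31-base stretches of mt-Co3, averaged 25471 and 33046 TPM. The call of mt-Co2 was lost without sham vehicle replicate 1, vehicle replicate 2 or prednisone replicate 2 (adjusted p up to 0.0984), and with the length correction (0.0886).

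Of 24 classical glucocorticoid receptor targets tested, from a list of 25, only Cdkn1a was called 24 hours after the last injection, a call that median-ratio rescaling ended (adjusted p = 0.0940). At an unadjusted p under 0.05, 4 were higher and 4 lower, beside 10.1% and 1.72% of all genes, and the median was -0.13. Fkbp5, the receptor's own co-chaperone, measured 3.502, 5.51 and 4.73 TPM with vehicle and 5.09, 7.63 and 5.34 TPM with prednisone. These groups overlapped (log2 change 0.33, limma adjusted p = 0.514). Tsc22d3, which encodes the anti-inflammatory protein GILZ, measured 40.1, 51.4 and 50.1 TPM against 49.8, 53.9 and 36.0 TPM (log2 change -0.03, adjusted p = 0.952). The Kruppel-like factors gave -0.25 for Klf9 (0.488) and -0.26 for Klf15 (0.574), Zbtb16 gave -0.32 (0.627), and Pdk4, the pyruvate dehydrogenase kinase, gave 0.01 (0.994) with values from 89.6 to 246 TPM. Among those nearest the threshold, the metallothionein gene Mt2 measured 21.7, 28.1 and 22.8 TPM against 14.8, 15.5 and 14.9 TPM (log2 change -0.64, adjusted p = 0.0856), with no overlap. Map3k6 gave -0.63 (0.134), the transglutaminase gene Tgm2 0.39 (0.153), Lcn2 0.40 (0.277) and Ddit4 0.51 (0.396). A p that misses the threshold does not show that these genes were equal, and earlier hours after an injection were not sampled.

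**Figure D3:**
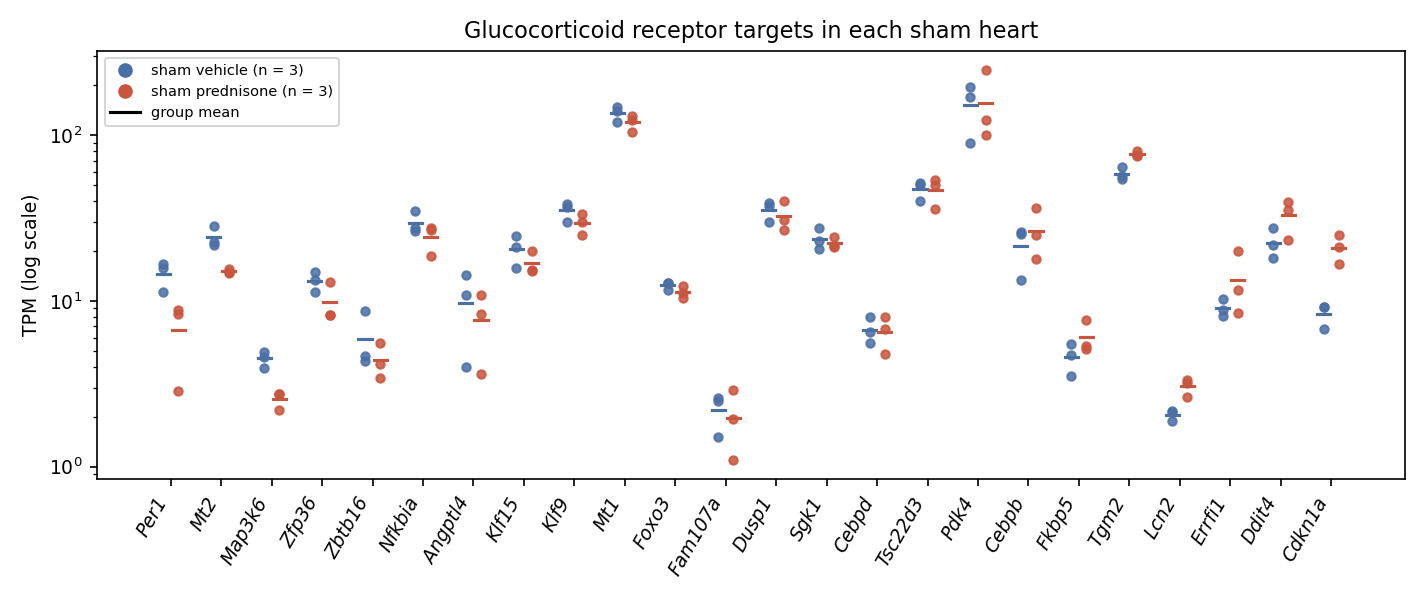
TPM on a log scale of the 24 tested glucocorticoid receptor targets in each sham heart, vehicle in blue and prednisone in red, n = 3 each, with a bar at each group mean, ordered by log2 change. The groups overlap for most genes, and Cdkn1a at the right end is the only one called.

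The receptor and its machinery were measured with 12 of 13 listed genes, none of them called. Nr3c1 itself ranged from 14.6 to 18.8 TPM with vehicle and from 16.9 to 17.7 TPM with prednisone (log2 change 0.11, limma adjusted p = 0.724). The list's median was 0.18, and its 3 members with an unadjusted p under 0.05 were the chaperones of the receptor complex, Hsp90aa1, Hsp90ab1 and Fkbp4. Hsd11b1, which regenerates active glucocorticoid, differed by 0.16 (adjusted p = 0.615).

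Heat shock and cold-inducible genes had a median change of 0.52 on the log2 scale, with no member called. Of 14 tested, 11 had prednisone values wholly above the vehicle values and 2 wholly below, beside 16.6% and 2.48% of all genes. At an unadjusted p under 0.05, 11 were higher and 2 lower. The chaperone gene Hsp90aa1 measured 43.4, 53.2 and 46.5 TPM with vehicle and 77.7, 128 and 82.4 TPM with prednisone (log2 change 0.96, limma adjusted p = 0.122). Hspa1a, the inducible HSP70, measured 0.917, 1.62 and 1.44 TPM against 4.08, 19.3 and 3.94 TPM (log2 change 1.79, adjusted p = 0.256). Prednisone replicate 2 was the highest library for both. Hspa8, the constitutive HSP70, gave 0.56 (0.122), and Hsph1, its exchange factor, 1.11 (0.134). The 2 lower genes were those known to rise when cells cool: Cirbp measured 44.3, 41.5 and 35.3 TPM against 25.0, 20.3 and 25.2 TPM (log2 change -0.76, adjusted p = 0.0677), and Rbm3 gave -0.49 (adjusted p = 0.150).

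**Figure D4:**
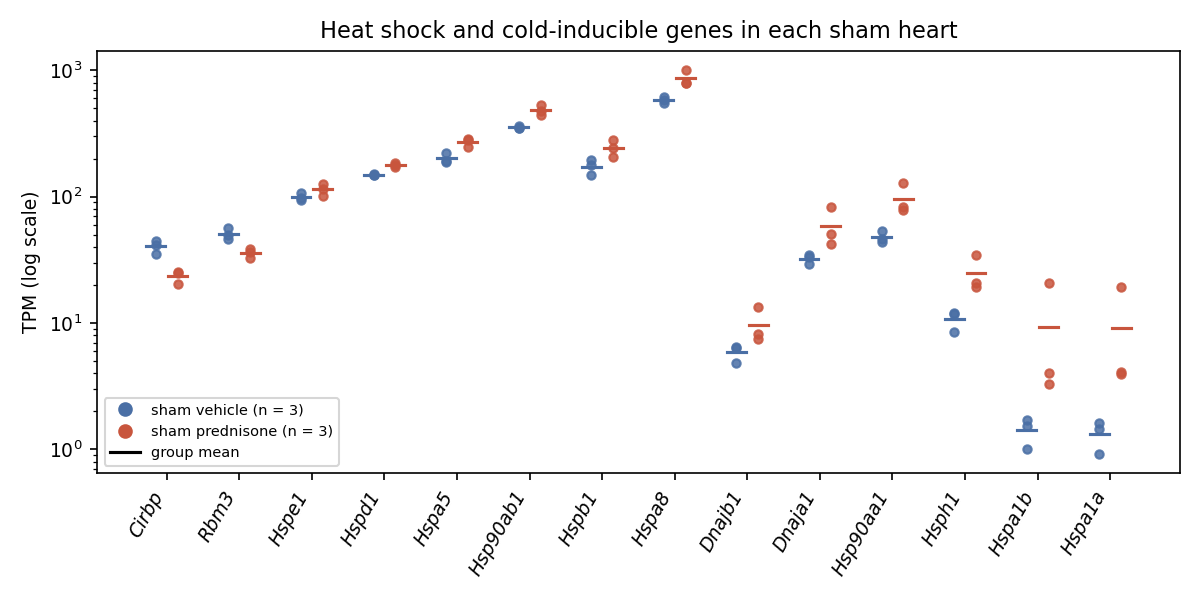
TPM on a log scale of 14 heat shock and cold-inducible genes in each sham heart, vehicle in blue and prednisone in red, n = 3 each, with a bar at each group mean, ordered by log2 change. Cirbp and Rbm3 at the left are lower with prednisone, 11 chaperone genes are higher without overlap, and for Hspa1a prednisone replicate 2 stands at 19.3 TPM.

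Contractile genes other than Tcap were not called. Of 29 sarcomere and Z-disc genes, 24 had a higher mean and 5 a lower one, beside 70.7% higher over all genes. Their median was 0.11, near the median of 0.08 over all genes. Without overlap, 10 of the 29 were higher and 1 lower, beside 16.6% and 2.48% of all genes. Of the 29, 9 were higher and 1 lower at an unadjusted p under 0.05, beside 10.1% and 1.72%. Nexn, a Z-disc actin binder, came nearest, at 216, 215 and 233 TPM with vehicle and 297, 302 and 331 TPM with prednisone (log2 change 0.48, limma adjusted p = 0.0640). Of 19 ion channel and calcium handling genes none was called, with a median of 0.13, and the gap junction gene Gja1 gave 0.36 (adjusted p = 0.240). Of 8 tested fetal and wall stress genes none was called. Nppb, the B-type natriuretic peptide, measured 85.2, 91.1 and 150.1 TPM against 142, 286 and 198 TPM, overlapping in 1 heart of each group (log2 change 0.92, adjusted p = 0.275).

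No member of 6 metabolic lists was called. Higher without overlap were 6 of 15 PGC-1, ERR and PPAR regulators and 9 of 22 glucose and insulin genes, beside 16.6% of all genes. The fatty acid, pyruvate, NAD and lipid droplet lists had 2, 3, 4 and 3 such members. With an unadjusted p under 0.05, 5 of the 15 and 6 of the 22 were higher, beside 10.1%, and 0 to 2 in each other list. Lower members numbered 0 to 2 per list by either measure. Medians were 0.03 for 29 genes of fatty acid uptake and oxidation, 0.07 for 16 of pyruvate and lactate, 0.05 for 18 of NAD synthesis and use, 0.17 for 15 PGC-1, ERR and PPAR regulators, 0.14 for 22 of glucose uptake, glycolysis and insulin signalling and 0.06 for 16 of lipid droplets. Ppara, the receptor that drives fatty acid oxidation genes, was nearest to the threshold, at 8.98, 10.7 and 9.62 TPM against 13.9, 15.3 and 14.96 TPM (log2 change 0.55, limma adjusted p = 0.0984), without overlap. Its coactivator Ppargc1a gave 0.32 (0.306) and the PGC-1 partner Perm1 0.31 (0.243). The fatty acid transport protein Slc27a1 gave -0.41 (0.178) and the pyruvate dehydrogenase phosphatase Pdp2 -0.34 (0.321). The mitochondrial pyruvate carrier genes Mpc1 and Mpc2 differed by 0.07 and 0.04 (0.754 and 0.865), with negative signs for both after median-ratio rescaling, and the NAD enzyme gene Nampt by 0.15 (0.496). Insulin signalling members gave 0.46 for Irs1 (0.269) and 0.25 for Tbc1d4 (0.326), the lipid droplet coat gene Plin3 0.35 (0.284), the phosphatase Lpin1 0.28 (0.364), and the NAD enzymes Nmnat1 0.37 (0.269) and Nadk2 -0.21 (0.419).

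Of 29 tested extracellular matrix genes 1 was called, Spon2, and the median was 0.14. The elastin gene Eln measured 9.30, 10.4 and 7.93 TPM with vehicle and 14.3, 13.6 and 17.7 TPM with prednisone (log2 change 0.67, limma adjusted p = 0.132), and the basement membrane collagen Col4a1 gave 0.41 (0.189). No call was made among 19 tested genes of inflammation and interferon (median 0.05), where Ccl6 gave 0.36 (0.316) and Il1b 0.67 (0.372). The 16 genes of muscle atrophy and autophagy had a median of 0.11, led by Bnip3 at 0.27 (0.312) and Ctsl at 0.19 (0.486). The 15 tested immediate early genes also had a median of 0.11, with Myc at -0.34 (0.478) and Atf3 at 0.38 (0.530).

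**Figure D5:**
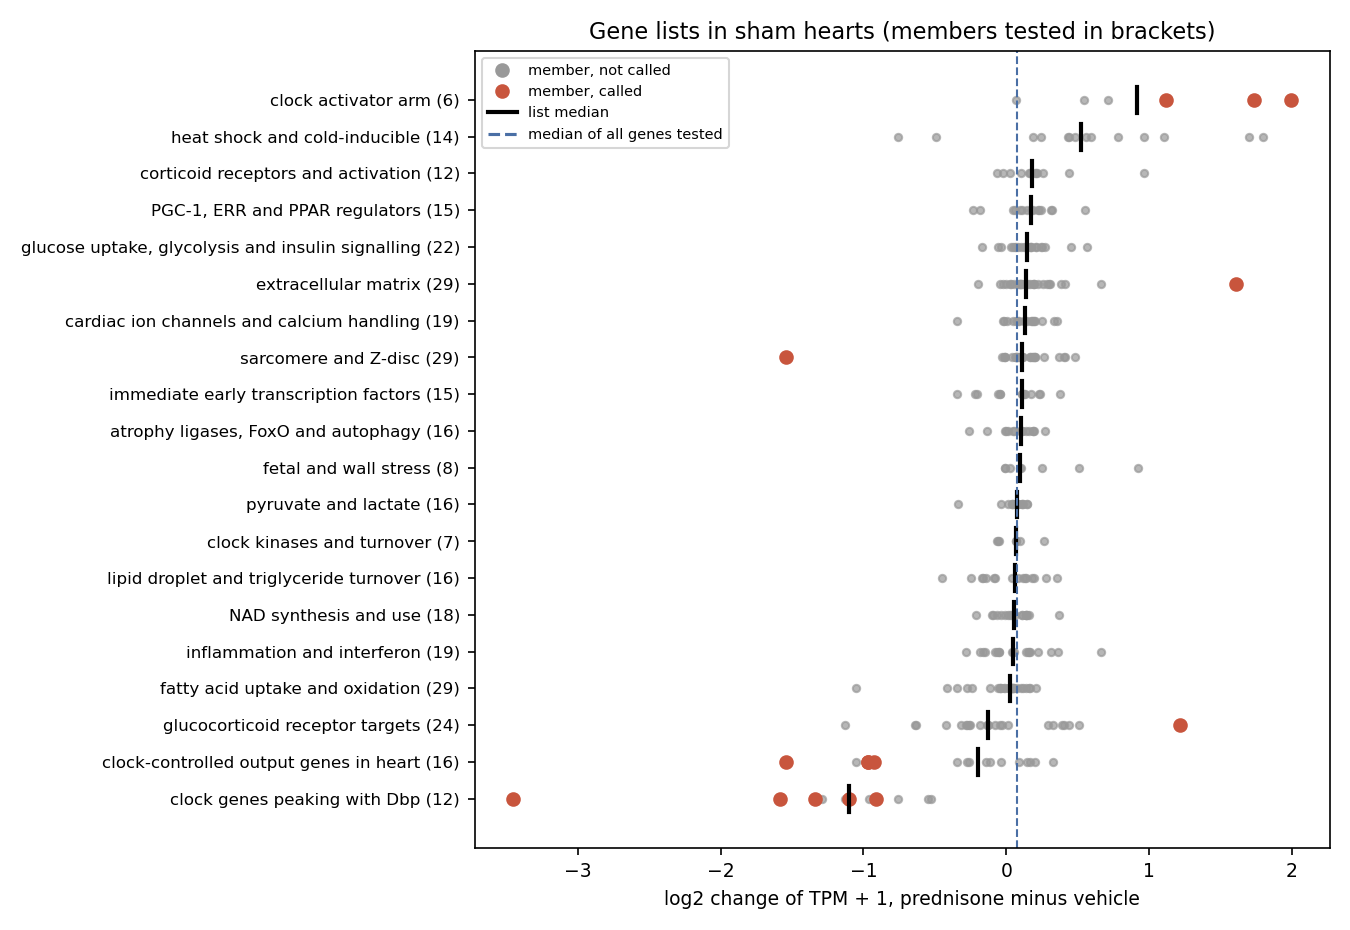
Log2 change of TPM + 1 (prednisone minus vehicle) of every tested member of the 20 gene lists, with called members in red, the list median as a black bar and the median of all genes tested, 0.08, as a dashed line. Medians furthest from that line belong to the clock genes peaking with Dbp (-1.10), the activator arm (0.91) and the heat shock list (0.52).

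Markers of cell types were compared because a bulk heart sample can hold different mixtures of cells, and fewer cells of a type and less RNA per cell cannot be told apart in such data. Across 13 marker lists no member was called. Summed ventricular cardiomyocyte markers ranged from 37090.5 to 39093 TPM with vehicle and from 37941 to 43860 TPM with prednisone. Fibroblast sums were 896 to 1145 and 949 to 1141 TPM, macrophage sums 272 to 389 and 313 to 417 TPM, and mesothelial sums 30.04 to 70.4 and 49.9 to 64.2 TPM, all overlapping. Endothelial sums overlapped too, at 797 to 1019 and 799 to 962 TPM, while 4 of 8 members were higher without overlap, beside 16.6% of all genes, and 3 had an unadjusted p under 0.05. Kdr, the receptor of Vegfa, gave 0.36 (limma adjusted p = 0.186) and Tek 0.36 (0.208), with Emcn at 0.32 (0.269), and their part in the change of Vegfa was not tested. Smooth muscle and pericyte sums, 215 to 233 TPM with vehicle and 235 to 244 TPM with prednisone, did not overlap, and of 8 members 3 were higher and 5 lower, with Abcc9 at 0.23 (limma adjusted p = 0.364). Atrial cardiomyocyte markers summed to 908 to 2629 TPM with vehicle and 2097 to 2834 TPM with prednisone. The 908 TPM was that of sham vehicle replicate 3, beside 1987 and 2629 TPM in vehicle replicates 1 and 2. All 8 markers had a higher mean with prednisone (median 0.48), led by Bmp10 at 1.03 (limma adjusted p = 0.493). Adipocyte markers summed to 21.7 to 379 TPM and 143 to 164 TPM, with 7 of 8 lower (median -0.39) and Ucp1, the brown fat marker, at -1.35 (adjusted p = 0.427). Erythroid sums were 26713 to 96733 and 42999 to 78692 TPM. Lymphocyte markers summed to 3.38 to 30.7 and 4.78 to 13.4 TPM with 4 of 10 tested, and neutrophil markers to 6.52 to 19.5 and 15.9 to 22.5 TPM with 4 of 8 tested, Ly6g being listed at 0 in every sham library. Skeletal muscle markers (5 of 9 tested) summed to 1427 to 1642 and 1575 to 1964 TPM, a sum set mostly by Ckm (log2 change 0.21), while 3 of the 5 were lower and the median was -0.53, with Tnnt3 at -0.79 (adjusted p = 0.624). Nerve markers (2 of 6) summed to 3.72 to 6.74 and 4.29 to 5.47 TPM. The share of the atrial, adipocyte and blood markers in the changes above was not tested, beyond the fits without each library.

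Libraries sorted by Dbp gave a short list of genes outside the clock lists with the most similar pattern over all 12 libraries, by Pearson r on log2(TPM + 1). The 12 points share 4 groups, so these values are a description. The highest were Usp54 (0.88), Lactb2 (0.87), Tmem86a (0.87), Pim3 (0.86) and Tns2 (0.86). The lowest were Mmaa (-0.91), Tuba8 (-0.89), Cited4 (-0.88), Fam195a (-0.87) and Myo18b (-0.87).

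The same 25 genes were read in infarcted hearts, where the drug was compared with vehicle in the 12-library fit. There the values depended on the scaling of TPM. The median change over all genes was -0.41 as deposited and -0.015 after median-ratio rescaling. As deposited, 37.4% of 13158 genes were called, 2.50% higher and 34.9% lower, and after rescaling 28.2%, 14.3% higher and 13.8% lower. Of the 13 genes lower in sham hearts, 11 were also called lower as deposited and 9 after rescaling. Of the 12 higher in sham hearts, 4 were called higher as deposited (Nfil3, Spon2, Vegfa and Tmem171) and 10 after rescaling. Dbp changed by -3.53 in infarcted hearts (limma adjusted p = 2.47e-07), Nfil3 by 1.63 (6.07e-05), Tef by -0.88 (0.000964) and Arntl by 0.72 (0.0567), all as deposited. The difference between the surgeries was called for 9 of the 25, beside 21.3% of all genes in that fit, and after rescaling for 2 of the 25, beside 8.67%. Rescaling moved that difference by 0.27 to 0.55 for each of the 25 genes, beside a median shift of 0.48 over all genes. The difference for Dbp was -0.08 (adjusted p = 0.783) as deposited and 0.45 (0.215) after rescaling, and for Nfil3 -0.11 (0.674) and 0.31 (0.257). For Tef it was 0.03 (0.905) and 0.56 (0.0685). These values do not show that the changes were equal in both surgeries.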

How the data were processed

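Myocardial RNA was measured by RNA-seq in 12 mice, 3 per group, grouped by their titles. The authors deposited TPM for 105129 transcript rows under 33641 gene symbols, and every library sums to 1000000. Trimmomatic, HISAT2, kallisto and mm10 are named in the submitters' processing notes without versions or roles. Depth is unknown, so no counting error or detection floor can be given. Abundant RNAs lower the TPM of all others, and near-identical copies share reads.

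Transcripts were summed by symbol, and a gene was kept if 3 or more of the 6 sham libraries reached 1 TPM. Linear models were fitted with limma 3.58.1 (R 4.3.3, trended eBayes) to log2(TPM + 1) of the sham libraries, with a mean per group. Log2 changes on this scale understate low genes. P-values were adjusted by Benjamini-Hochberg over all genes tested, and a gene was called under 0.05. An exact permutation test of 3 against 3 cannot go below 0.1 and was not used. The difference between surgeries was an interaction contrast over all 12 libraries. Only the 6 sham libraries set the spread of the sham test, so that infarcted hearts had no part in it. On data simulated for 11963 genes, 93 of 100 genes changed by 1 on the log2 scale were called, and 99 of 100 changed by 2. There were 12 false calls. The changed genes all averaged at least 5 TPM, and noise was drawn independently for each gene and library. These rates therefore do not cover genes of lower TPM or differences shared across a whole library.

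Named genes were, of called genes averaging at least 5 TPM without overlap, up to 12 per direction; every called member or the 2 lowest p of each list; and a fixed set of clock, glucocorticoid and metabolic genes. Other genes (among them Hlf, Hspa1a, Hspa8, Hsph1, Rbm3, Mt2, Nexn, Eln, Hsd11b1, Fkbp4 and the called Ypel2, Tmem171 and Slc15a2) were added after their values were seen. Of the listed genes, 2 are not reported here, and the counts, medians and sums of their lists leave them out. The members and lists were chosen with earlier results of these data known. Coordinates are from GENCODE M21 (GRCm38), which holds 94.7% of the transcript identifiers. Promoters are RefSeq's for GRCm38.p6. Alternatives covered scaling, removed rows, the filter, pseudocount, trend, libraries fitted, replicate block, transcript length, transcripts and single libraries left out. Mice are separate animals, per the labels.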

Additional observations from a re-analysis of the deposited data

Results flagged for a closer look

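For 9 of the 25 genes called in sham hearts, the change with prednisone differed between infarcted and sham hearts in the interaction test (limma adjusted p under 0.05), beside 21.3% of the 13158 genes tested. Differences are the change in infarcted hearts minus that in sham hearts, on the log2 scale. Among clock genes, Arntl differed by -1.27 (adjusted p = 0.0398). Infarcted vehicle hearts measured 2.90, 3.75 and 8.26 TPM and infarcted prednisone hearts 7.47, 8.65 and 8.45 TPM, a change of 0.72 beside 1.99 in sham hearts. The 8.26 TPM came from infarcted vehicle replicate 3, whose lymphocyte markers summed to 482 TPM, against 19.0 and 11.5 TPM in replicates 1 and 2. Without that library the Arntl difference was -0.90 (limma adjusted p = 0.0199). Nr1d1 differed by -0.67 (0.0320) and Nr1d2 by -0.91 (0.00997), both lower with prednisone in either surgery and, as deposited, further so after infarction. In infarcted hearts Nr1d2 measured 24.7, 24.1 and 26.2 TPM with vehicle against 5.34, 4.88 and 6.13 TPM with prednisone. After median-ratio rescaling the difference was -0.14 for Nr1d1 (limma adjusted p = 0.739) and -0.40 for Nr1d2 (0.325). Tcap differed by 0.59 (0.0471), and its infarcted vehicle hearts measured 1411, 1395 and 1149.6 TPM against 672, 813 and 565 TPM with prednisone.

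Of the genes outside the clock lists, Cdkn1a differed by -1.32 (adjusted p = 0.0218), and its infarcted vehicle hearts measured 16.4, 28.9 and 30.5 TPM against 20.4, 20.9 and 27.5 TPM with prednisone. Slc41a3 differed by -0.93 (0.0200), Tmem171 by -0.90 (0.0271), Adam19 by -0.89 (0.0160) and Ypel2 by -0.70 (0.0489). Median-ratio rescaling shifted these differences upward together, by 0.27 to 0.55 for the 25 genes. Arntl then stayed past the threshold (-0.83, adjusted p = 0.0482) and the other 8 did not, among them Tcap, whose difference grew to 1.14 (0.0520), while Lactb2 passed it (0.74, 0.0496). Without infarcted vehicle replicate 3, Tcap (0.0749) and Ypel2 (0.0525) missed the threshold, the other 7 kept their call, and Slc15a2 passed it (2.39, 0.0386).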

How the results depend on the processing

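The 25 calls of the sham comparison rested on small groups. The count was 3 without a filter on low values, 16 without the trend, 15 over all 12 libraries and 15 when each transcript was tested. Leaving out 1 library gave 9 to 76. The replicate block gave 4 and, with the length correction, 9. Same-numbered libraries deviated together from their group means at r = 0.14, -0.18 and -0.02, and not every library correlated best with its own number. With 3 libraries per group, these correlations cannot decide whether replicate numbers mark a shared batch or pairing. The other 5 alternatives gave 19 to 30. Of the 25 genes, 3 (Dbp, Tcap and Nfil3) were called under all 17 alternatives, and none changed sign under any. Unknown depth limits what can be said of genes near 1 TPM.

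Signs reversed for some genes that were not called. Under median-ratio rescaling the log2 change became -0.017 for Csnk1e, -0.076 for Pdk4, -0.017 for Mpc1, -0.044 for Mpc2 and -0.00058 for Rora. Without mitochondrial, nuclear-copy and globin transcripts it was -0.0080 for Csnk1e, -0.067 for Pdk4, -0.0082 for Mpc1 and -0.035 for Mpc2. With the length correction, alone or with the block, it was -0.086 for Pdk4, -0.0069 for Nr3c1 and -0.059 for Rora. By most abundant transcript it was -0.065 for Csnk1e, 0.051 for Nadk2, -0.028 for Tbc1d4, -0.0019 for Pdk4 and -0.0091 for Rora. Leaving out 1 library spanned -0.79 to 0.078 for Cd79b, -0.48 to 0.085 for Ms4a1, -1.32 to 0.011 for Tnnt3, -0.15 to 0.14 for Tsc22d3, -0.37 to 0.27 for Pdk4 and -0.014 to 0.11 for Mpc2.

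Median-ratio rescaling moved the difference between surgeries by a median of 0.48 over all genes. This common shift turned the sign for 8 called genes with no called difference: 0.45 for Dbp, 0.31 for Nfil3, 0.20 for Tspan4, 0.50 for Vegfa, 0.013 for Ccdc69, 0.22 for Coq10b, 0.13 for Rcan1 and 0.080 for Usp2. Under the replicate block, the called differences of Tcap, Nr1d1, Arntl and Ypel2 missed the threshold (adjusted p = 0.0512 to 0.0682), and the cause was not tested.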
